A study of Mus musculus with 36 samples.

Results

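The proteasome subunit genes are described here across the livers of 36 mice. Members were all genes whose symbol in the count table was Psm, a letter from a to g, a number and any further letters, which held for 49 of the 38283 genes listed. Of these 49 genes, 14 encode the core (7 of its alpha rings and 7 of its beta rings), 17 the regulatory cap (6 ATPases and 11 others) and 3 the inducible catalytic subunits of the immunoproteasome. A further 5 encode activators or inhibitors of the core and 7 its assembly chaperones or those of the cap. Psma8 and Psmb11 are subunits of the testis and the thymus, and Psmc3ip is a recombination factor named for its binding to Psmc3 and is not a subunit. All 49 passed the filter on low counts.

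The study asked how a Pik3r1 allele alters the liver's transcripts in fed, fasted and refed mice. Y657* ends the regulatory subunit of phosphoinositide 3-kinase early and models SHORT syndrome, a human disorder with insulin resistance. Wild-type (WT) and WT/Y657* mice on a C57Bl/6J background were 16 weeks old and either had chow ad libitum (fed), were without food for 16 h (fasted) or had chow again for 6 h after such a fast (refed). Each of the 6 groups held 6 mice, each mouse in 1 group, and liver RNA was sequenced as stranded total RNA with single reads of 50 bases. The knock-in allele was carried in all tissues, so effects that begin outside the liver cannot be told apart from those that begin in it. Mice are named as in the labels, with ALC for fed, ONF for fasted, RF6 for refed and MT for WT/Y657*. All fed mice have numbers of 1 series and the fasted and refed mice numbers of 2 others, so a difference between fed and other mice cannot be told apart from one between number series. Total counts per mouse ran from 8839488 to 19542775 (median 13596665.5). Pik3r1 itself was at 119 to 158 CPM (median 132) in fed, 82.4 to 106 (94.3) in fasted and 116 to 139 (124) in refed WT mice, and at 115 to 182 CPM (median 133) in fed, 74.5 to 112 (99.1) in fasted and 128 to 166 (152) in refed WT/Y657* mice. Its counts do not separate the genotypes, whose log2 difference was 0.04 ± 0.10 (adjusted p = 0.886) fed, 0.05 ± 0.10 (adjusted p = 0.807) fasted and 0.23 ± 0.10 (adjusted p = 0.423) refed, so the genotypes rest on the labels.

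The proteasome degrades proteins tagged with ubiquitin: the cap binds the tag, removes it, unfolds the protein with its ATPases and feeds it into the core, whose beta rings cut it. Interferon gamma induces Psmb8, Psmb9 and Psmb10, which replace Psmb5, Psmb6 and Psmb7 and favour peptides that MHC class I molecules present. Nfe2l1 (Nrf1) is known to raise transcription of proteasome subunit genes together when proteasome activity falls, and the liver loses protein in a fast and regains it with food.

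Levels are in CPM, counts scaled to a common library size with TMM factors. Differences are log2 fold changes ± SE from edgeR's quasi-likelihood test over all 36 mice, with p-values adjusted by Benjamini-Hochberg over 13945 genes and called under 0.05. "Rose" and "fell" are used of called genes. Per kilobase of exon, the median core gene of fed WT mice was at 30.04 CPM per kb, the median cap gene at 23.9 and the median activator gene at 24.7. On the same scale the immunoproteasome genes had a median of 7.36, the assembly genes 5.61, Psmc3ip 3.02 and the tissue variants 0.249. By these medians core and cap genes stood above the immunoproteasome genes. After refeeding, the median of the core genes was 39.8 CPM per kb in WT and 40.2 in WT/Y657* mice, and that of the cap genes 35.1 and 34.9.

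Refed mice were compared with fasted mice first. The refed mice also were 6 h further from the start of the fast, and food cannot be told apart from those hours or from the time of day. In WT mice 35 of the 49 genes were called, all higher after refeeding, beside 30.2% of all genes called in either direction (16.5% higher and 13.7% lower). In 26 of the 49 the refed and fasted WT mice did not overlap, beside 16.9% of all genes. In WT/Y657* mice 33 genes rose and Psmd9 fell, beside 31.3% of all genes called (17.1% higher and 14.2% lower), and 11 genes did not overlap, beside 11.9%. Of the 35 genes called in WT and the 34 called in WT/Y657* mice, 29 were called in both with the same sign. The median of the 49 genes was 0.33 in WT and 0.26 in WT/Y657* mice, against 0.00 and -0.01 over all genes.

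Refed mice were also compared with mice that had not been fasted, using the same refed libraries. In WT mice 34 genes were called, all higher in refed mice, beside 27.5% of all genes called (13.2% higher and 14.3% lower), and 30 genes did not overlap, beside 14%. The WT/Y657* comparison called 36 genes, again all higher, beside 26.1% (13% higher and 13.1% lower), and 27 did not overlap, beside 9.11%. The genes called in both genotypes numbered 34, of 34 in WT and 36 in WT/Y657* mice. For the core and cap, all 31 genes had a positive difference in both genotypes and 30 were called, the other being Psmd11 (0.15 in WT and 0.08 in WT/Y657* mice).

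Fasting, compared with the fed state, moved fewer of them. This comparison shares its fasted mice with the refeeding comparison and its fed mice with the one just given. Fed livers were taken before the overnight fast and fasted livers after it, so fasting cannot be told apart from time of day. Clock times are not stated, so refed and fed mice may differ in time of day too. In WT mice 8 genes rose and 5 fell, beside 32% of all genes called (14.5% higher and 17.5% lower). Removing each library's trend with GC content gave 10 and 3. The fasted and fed WT mice did not overlap in 9 genes, beside 17.6%. In WT/Y657* mice 17 genes rose and 6 fell, beside 32.9% (15.2% higher and 17.7% lower), and scaling by library size alone gave 11 and 8. In 10 genes these mice did not overlap, beside 11.5%. The count called in both genotypes with the same sign was 9, of 13 in WT and 23 in WT/Y657* mice, and for WT mice the 13 became 8 with no filter on low counts or without ONF_WT_919.

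The genotypes were compared within each state. In fed mice edgeR called 0 of the 49 genes, beside 2.37% of all genes. The lowest adjusted p was 0.132, 2 genes had an unadjusted p under 0.05, and the likelihood ratio test and DESeq2 called 0. Scaling by library size alone put the median of all genes in that comparison at 0.108, in place of 0.00789, and called 1 gene. In refed mice edgeR called 0, beside 0.0287% of all genes, with 2 at an unadjusted p under 0.05 and 0 by the likelihood ratio test and by DESeq2. In fasted mice 6 genes were called, all higher in WT/Y657* mice, beside 13.1% of all genes (6.43% higher and 6.63% lower), and 5 of them did not overlap between genotypes, beside 5.04%. The 6 were Psma7, Psma3, Psma5, Psma6, Psmc6 and Psmg4, of which 4 belong to the alpha rings. Library size alone called 12 and the fit without ONF_MT_806 called 10, all higher in WT/Y657* mice. DESeq2 called the same 6 and Psmd2, which was lower in WT/Y657* mice, with -0.18 ± 0.07 (adjusted p = 0.0702) in edgeR. Without ONF_MT_826 or ONF_WT_807 edgeR called Psmd2 lower too, and without ONF_MT_923 it called Psme1 lower.

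**Figure D1:**
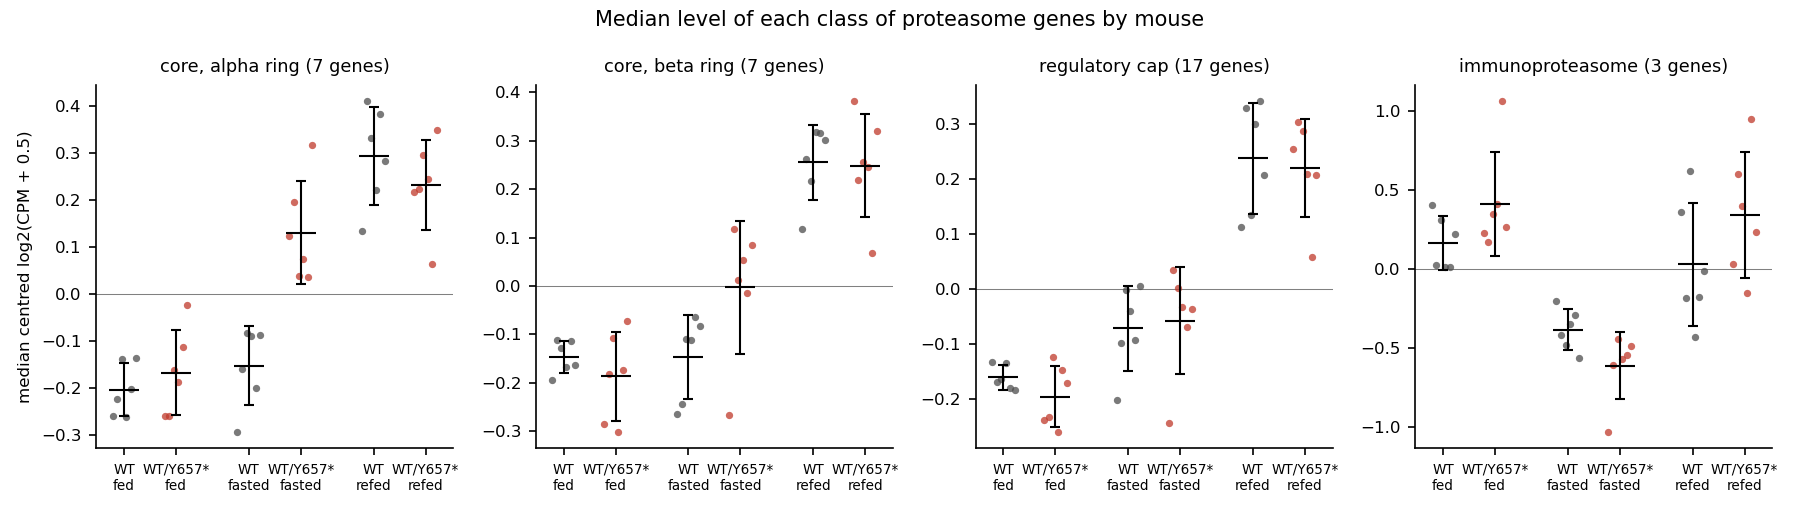
Class median per mouse of log2(CPM + 0.5), each gene centred on its mean over the 36 mice. Panels show the alpha ring, the beta ring, the cap and the immunoproteasome genes by group. WT mice are in grey, WT/Y657* mice in red and bars at mean ± SD (n = 6). The alpha ring median of the 6 refed WT mice lay between 0.13 and 0.41, above all fasted and fed WT mice. The immunoproteasome median of fasted WT/Y657* mice lay between -1.03 and -0.45.

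The 7 alpha ring subunits form the outer rings of the core, through which substrates enter. All 7 rose on refeeding in WT mice with no overlap (median 0.46), beside 16.5% of all genes higher and 16.9% without overlap. In WT/Y657* mice 3 rose, beside 17.1% of all genes. There the ring's median was 0.08, and -0.01 once each library's trend with gene length was removed. Against fed mice all 7 were higher in refed mice of both genotypes, with medians of 0.45 in WT and 0.40 in WT/Y657* mice. Between fasted genotypes 4 were called, each higher in WT/Y657* mice and without overlap, beside 13.1% of all genes called and 5.04% without overlap. The other 3 had a positive difference with overlap (median of the 7 0.23).

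Psma7, an alpha ring subunit, was at 67.3 to 72.9 CPM (median 70.8) in fed, 76.5 to 94.1 (81.3) in fasted and 102 to 126 (117) in refed WT mice. The WT/Y657* mice had 71 to 84.8 CPM (median 75.2) in fed, 103 to 119.8 (110.5) in fasted and 108 to 131 (117) in refed mice. All 6 fasted WT/Y657* mice lay above all 6 fasted WT mice and within the range of refed WT mice. Fasting raised it by 0.24 ± 0.06 (adjusted p = 0.00262) in WT and by 0.54 ± 0.06 (adjusted p = 1.21e-08) in WT/Y657* mice, and the genotypes differed in the fasted state by 0.42 ± 0.06 (adjusted p = 3.48e-05). On refeeding it rose by 0.46 ± 0.06 (adjusted p = 3.82e-07) in WT mice, while the difference in WT/Y657* mice was 0.08 ± 0.06 (adjusted p = 0.358). Refed mice exceeded fed mice by 0.71 ± 0.06 (adjusted p = 2.54e-10) in WT and 0.62 ± 0.06 (adjusted p = 2.31e-09) in WT/Y657* mice.

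Psma3, another alpha ring subunit, was at 83.2 to 90.9 CPM (median 85.1) in fed, 74.4 to 101 (91.1) in fasted and 101 to 126 (113) in refed WT mice. Levels of WT/Y657* mice were 83.3 to 102 CPM (median 90.6) in fed, 102 to 131 (111) in fasted and 104 to 119 (113) in refed mice. Fasted WT mice overlapped fed ones, and all fasted WT/Y657* mice lay above all fasted WT mice. The fasted genotype difference was 0.34 ± 0.07 (adjusted p = 0.00107), fasting raised Psma3 by 0.29 ± 0.07 (adjusted p = 0.00111) in WT/Y657* mice, and the WT value was 0.04 ± 0.07 (adjusted p = 0.708). Refeeding raised it by 0.35 ± 0.07 (adjusted p = 0.000126) in WT mice, and the WT/Y657* value was 0.01 ± 0.07 (adjusted p = 0.963). Of its 50-base windows 15.4% also occur in other genes.

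Psma5, also of the alpha ring, was at 29.2 to 33.4 CPM (median 31.4) in fed, 32.1 to 41.2 (37.6) in fasted and 41.4 to 49 (46.2) in refed WT mice. For WT/Y657* mice the range was 26.4 to 38.2 CPM (median 31) in fed, 42.4 to 54.9 (45) in fasted and 39.5 to 47.8 (44.9) in refed mice. No fasted WT/Y657* mouse fell in the range of fasted WT mice, and their levels overlapped those of refed mice. Fasting raised it by 0.25 ± 0.08 (adjusted p = 0.0165) in WT and 0.56 ± 0.08 (adjusted p = 1.09e-06) in WT/Y657* mice, and the fasted genotype difference was 0.32 ± 0.08 (adjusted p = 0.00658). The refeeding difference was 0.30 ± 0.08 (adjusted p = 0.00462) in WT and -0.07 ± 0.08 (adjusted p = 0.533) in WT/Y657* mice. Copies of its sequence elsewhere make its counts uncertain: 50.0% of its 50-base windows occur in other genes, and it overlaps another gene on the other strand.

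Psma6, the fourth alpha ring gene called between fasted genotypes, was at 71.8 to 81.7 CPM (median 77.8) in fed, 83 to 92.9 (86.9) in fasted and 98.6 to 115 (104) in refed WT mice. Among WT/Y657* mice it was at 71.2 to 80.1 CPM (median 74.1) in fed, 94.5 to 117 (99.1) in fasted and 76.9 to 108 (101) in refed mice. The fasted genotypes did not overlap, with a difference of 0.23 ± 0.07 (adjusted p = 0.0137) that was 0.19 (adjusted p = 0.052) without ONF_MT_923 and 0.13 with the gene length trend removed. Refeeding raised it by 0.26 ± 0.07 (adjusted p = 0.00198) in WT mice, and the WT/Y657* value was -0.06 ± 0.06 (adjusted p = 0.513). Its rise on fasting was 0.46 ± 0.07 (adjusted p = 8.52e-07) in WT/Y657* and 0.17 ± 0.07 (adjusted p = 0.0422) in WT mice. That WT call was lost without ONF_WT_825, ONF_WT_918, ONF_WT_919 or ONF_WT_920 or ALC_WT_847, ALC_WT_848 or ALC_WT_850 (log2 0.15 to 0.17), under the likelihood ratio test and with no filter.

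Psma1, Psma2 and Psma4, the alpha ring subunits with the smallest p on refeeding in WT mice, were not called between fasted genotypes. Psma2 was called there, higher in WT/Y657* mice, with library size alone, the groups compared alone or the gene length trend removed, and without ONF_MT_806 or ONF_MT_922 or the 4 mice with lymphocyte marker sums over 40 CPM given below. Psma1 was at 73.7 to 82.5 CPM (median 79.2) in fed, 65.7 to 81.2 (73.4) in fasted and 97.4 to 121 (108) in refed WT mice, so that refed mice lay above all others. It was at 74.1 to 91.8 CPM (median 80.1) in fed, 71 to 85.3 (75.9) in fasted and 85.9 to 116 (106) in refed WT/Y657* mice, where refed mice lay above fasted ones. Refeeding raised Psma1 by 0.57 ± 0.07 (adjusted p = 7.78e-08) in WT and 0.44 ± 0.07 (adjusted p = 6.12e-06) in WT/Y657* mice. Psma2 was at 66.3 to 76.4 CPM (median 72.4) in fed, 68.3 to 73.9 (71.5) in fasted and 86.9 to 108 (99.6) in refed WT mice and at 65.6 to 78.9 CPM (median 71.2) in fed, 72.8 to 85.1 (81.4) in fasted and 87.8 to 106 (94.6) in refed WT/Y657* mice. Refed mice lay above both other states in each genotype, with refeeding differences of 0.46 ± 0.06 (adjusted p = 1.47e-07) and 0.27 ± 0.06 (adjusted p = 0.000497). Psma4 was at 88.7 to 103 CPM (median 99.2) in fed, 77.5 to 92 (87.4) in fasted and 114 to 136 (123) in refed WT mice and at 88.8 to 101 CPM (median 96.8) in fed, 84.9 to 104 (95.1) in fasted and 104 to 132 (122) in refed WT/Y657* mice. The refed WT mice did not overlap the others, and refeeding raised Psma4 by 0.52 ± 0.06 (adjusted p = 4.27e-08) in WT and 0.36 ± 0.06 (adjusted p = 2.59e-05) in WT/Y657* mice. It fell on fasting in WT mice (-0.17 ± 0.06, adjusted p = 0.0309), a call lost without ONF_WT_807 or ONF_WT_919 or ALC_WT_848, ALC_WT_849 or ALC_WT_860 (log2 -0.17 to -0.14), with no filter or with the GC trend removed. Psma4 overlaps another gene on the other strand.

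Whether the response to food differed by genotype was tested directly as an interaction. For fasting, edgeR called Psma7, which is 1 of 49, beside 4.35% of all genes, with a difference of 0.30 ± 0.09 (adjusted p = 0.0457) (WT/Y657* less WT). All 14 core genes had a positive difference (median 0.19, against -0.01 over all genes), beside 6734 of all 13945 genes. Of the 14, 8 had an unadjusted p under 0.05, beside 2664 of the 13945. The 14 genes were read in the same mice and are not separate observations. The Psma7 call was lost under the likelihood ratio test (log2 0.30), library size alone (0.24), no filter (0.29) and a fit to the groups compared alone (0.29). It was also lost without any 1 of 17 mice: ONF_MT_806, ONF_MT_826 or ONF_MT_923 and ALC_MT_857, ALC_MT_858, ALC_MT_859 or ALC_MT_868, and ONF_WT_807, ONF_WT_824, ONF_WT_825 or ONF_WT_919 and all 6 fed WT mice (log2 0.27 to 0.31). Without ONF_MT_921 the count was 2. For refeeding, Psma7 (-0.39 ± 0.09, adjusted p = 0.0152) and Psma3 (-0.35 ± 0.10, adjusted p = 0.0474) were called, 2 of 49 beside 2.06% of all genes. All 14 core genes had a negative difference (median -0.18, against 0.02), beside 6669 of all 13945 genes. The fasted libraries are shared by both interaction tests. The Psma3 call was lost without ONF_MT_806, ONF_MT_826, ONF_MT_921 or ONF_MT_923, RF6_MT_810, RF6_MT_814, RF6_MT_817 or RF6_MT_898, ONF_WT_807, ONF_WT_824 or ONF_WT_919, or RF6_WT_816, RF6_WT_828, RF6_WT_900 or RF6_WT_901 (log2 -0.36 to -0.30). It was also lost with DESeq2's size factors (-0.34), library size alone (-0.33), no filter (-0.34), the groups compared alone (-0.35) or the GC trend removed (-0.25). With no filter the Psma7 refeeding call was lost as well (-0.38), and without RF6_MT_897 the count was 4.

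**Figure D2:**
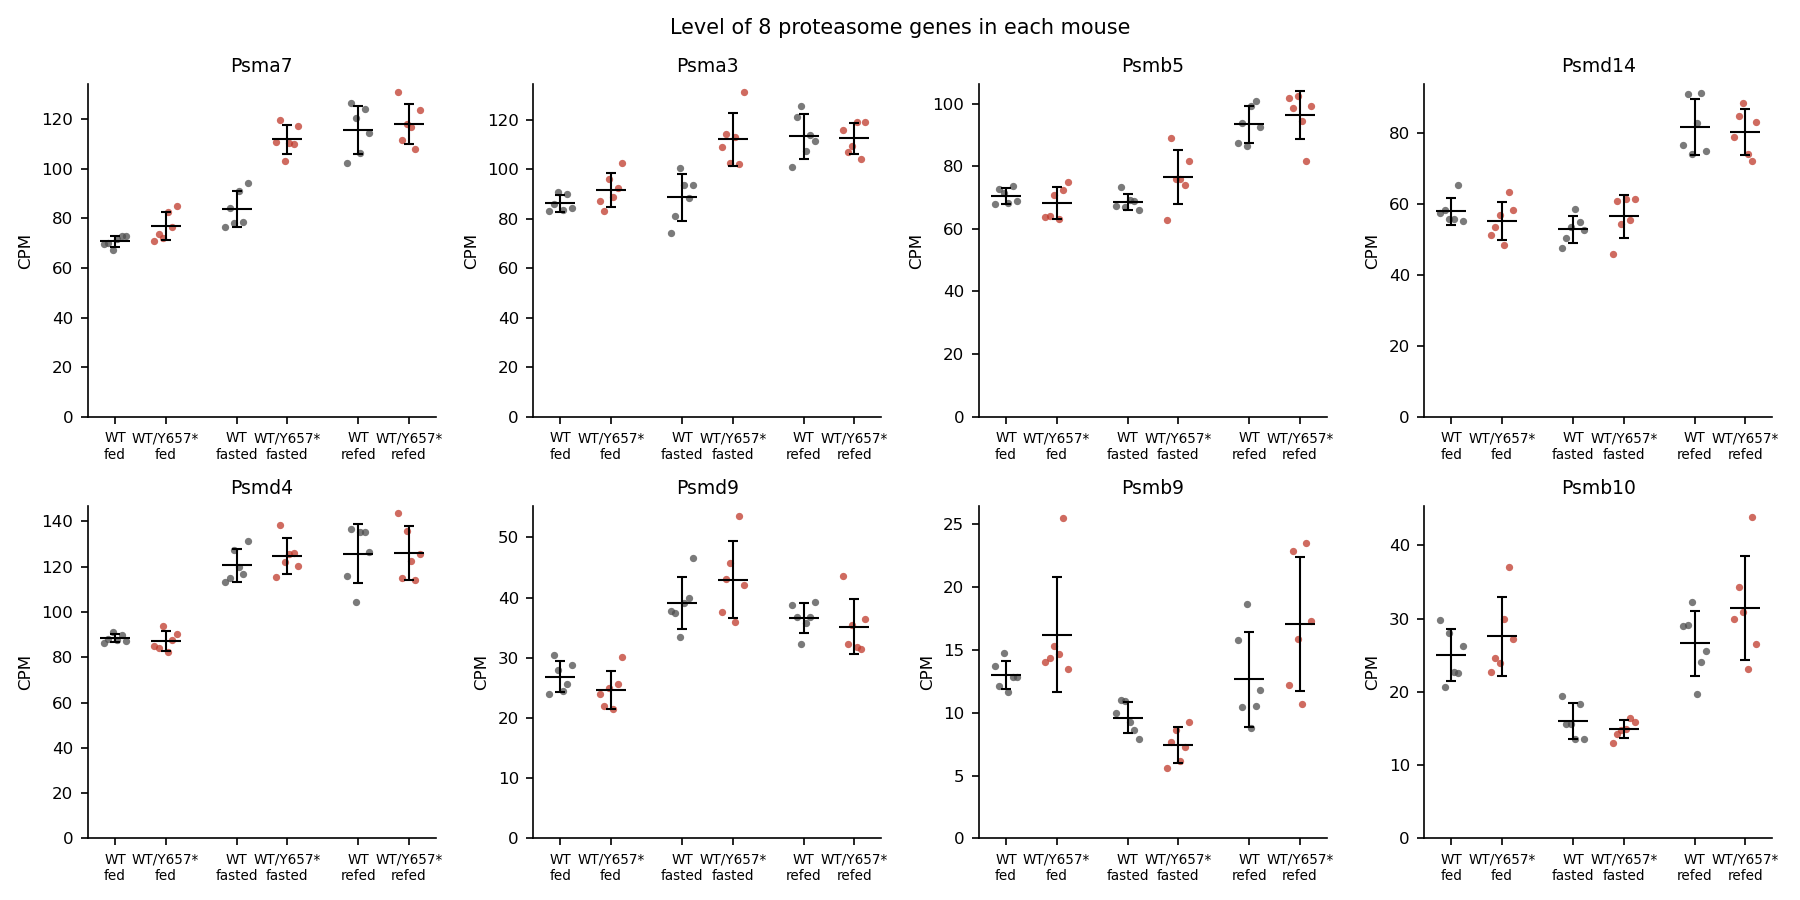
CPM of Psma7, Psma3, Psmb5, Psmd14, Psmd4, Psmd9, Psmb9 and Psmb10 in each of the 36 mice by group, with WT in grey, WT/Y657* in red and bars at mean ± SD (n = 6). Psma7 ran from 103 to 119.8 (median 110.5) CPM in fasted WT/Y657* mice and from 76.5 to 94.1 (median 81.3) in fasted WT mice, while Psmd4 was higher in fasted than in fed mice of both genotypes.

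The 7 beta ring subunits of the core include its catalytic sites. All 7 rose on refeeding in WT mice without overlap (median 0.41), beside 16.5% of all genes higher and 16.9% without overlap. In WT/Y657* mice 6 rose (median 0.28), beside 17.1% of all genes. All 7 were higher in refed than in fed mice of both genotypes, with no overlap in either. Between fasted genotypes all 7 had a positive difference (median 0.16) with overlap, beside 7021 of all 13945 genes with a positive difference. Here edgeR called 0 of the 7, and the likelihood ratio test and DESeq2 called 0. An unadjusted p under 0.05 was found for 4, beside 3806 of all 13945 genes. Psmb2, Psmb4 and Psmb5 were called, higher in WT/Y657* mice, without ONF_MT_806 and with the GC trend removed, these 3 and Psmb1 with library size alone, Psmb1 with the gene length trend removed, and Psmb4 without ONF_WT_919 or ONF_WT_920.

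Psmb5, the chymotrypsin-like catalytic subunit, was at 68 to 73.6 CPM (median 70.1) in fed, 66.1 to 73.2 (68) in fasted and 86.4 to 101 (93.1) in refed WT mice. The WT/Y657* mice had 63.2 to 75 CPM (median 67.6) in fed, 62.9 to 89.1 (75.9) in fasted and 81.8 to 102 (98.9) in refed mice. Refed WT mice lay above fasted and fed ones, whereas refed and fasted WT/Y657* mice overlapped. Refeeding raised it by 0.45 ± 0.06 (adjusted p = 1.51e-06) in WT and 0.33 ± 0.06 (adjusted p = 0.000118) in WT/Y657* mice. Refed exceeded fed mice by 0.41 ± 0.06 (adjusted p = 1.15e-05) and 0.50 ± 0.06 (adjusted p = 3.88e-07). Other genes hold 54.1% of its 50-base windows, so its counts are uncertain.

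Psmb6, the caspase-like subunit, was at 103 to 113 CPM (median 109) in fed, 97.1 to 115 (106) in fasted and 123 to 161 (148) in refed WT mice. Levels of WT/Y657* mice were 92.8 to 112 CPM (median 101) in fed, 98.8 to 126 (115) in fasted and 116 to 154 (142) in refed mice. As for Psmb5, refed WT mice lay above the other states. Refeeding raised Psmb6 by 0.47 ± 0.07 (adjusted p = 2.04e-06) in WT and 0.28 ± 0.07 (adjusted p = 0.00192) in WT/Y657* mice. Psmb7, the trypsin-like subunit, was at 112 to 117 CPM (median 114) in fed, 102 to 125 (114) in fasted and 127 to 158 (144) in refed WT mice, with refed mice highest. In WT/Y657* mice Psmb7 was at 99.3 to 128 CPM (median 111) in fed, 101 to 135 (126) in fasted and 129 to 155 (143) in refed mice, and refeeding raised it by 0.33 ± 0.07 (adjusted p = 0.000165) in WT and 0.21 ± 0.07 (adjusted p = 0.014) in WT/Y657* mice. Psmb7 overlaps Nek6 on the other strand. Psmb4, a beta ring subunit without a catalytic site, was at 101 to 109 CPM (median 106) in fed, 108 to 129 (113) in fasted and 151 to 166 (162) in refed WT mice and at 105 to 119 CPM (median 108) in fed, 107 to 139.8 (133) in fasted and 155 to 179 (169) in refed WT/Y657* mice. Refed mice of both genotypes lay above all fed and fasted mice. Psmb4 rose on refeeding by 0.45 ± 0.06 (adjusted p = 2.01e-07) in WT and 0.37 ± 0.06 (adjusted p = 4.2e-06) in WT/Y657* mice, and refed exceeded fed mice by 0.60 ± 0.06 (adjusted p = 2.14e-09) and 0.62 ± 0.06 (adjusted p = 6.66e-10).

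Promoters are shown for 4 members, 3 that moved with feeding and hold the core of the antioxidant response element, which Nfe2l1 and Nfe2l2 bind, and 1 immunoproteasome gene with the core of the gamma-activated site, through which interferon gamma acts. RefSeq promoters (GRCm38.p6, 250 bases before to 50 after the start) were found for 41 of the 49 genes, 44 promoters of 32851. On either strand TGACNNNGC, the response element core, was in 6 of the 44 (13.6%, and 12.4% of all promoters). GAAANNGAA, the core of the interferon-stimulated response element, was in 7 (15.9%, and 8.56% of all). TTCNNNGAA, the gamma-activated site core, was in 3 (6.82%, and 8.3% of all). Capitals mark the match, which is a description of the letters and not of a bound site. Psmb5 is shown for chr14:54617946-54618245 (minus strand), Psmb6 for chr11:70525107-70525406 (plus), Psmd9, a cap assembly chaperone, for chr5:123227940-123228239 (plus) and Psmb8 for chr17:34197945-34198244 (plus).
Psmb5: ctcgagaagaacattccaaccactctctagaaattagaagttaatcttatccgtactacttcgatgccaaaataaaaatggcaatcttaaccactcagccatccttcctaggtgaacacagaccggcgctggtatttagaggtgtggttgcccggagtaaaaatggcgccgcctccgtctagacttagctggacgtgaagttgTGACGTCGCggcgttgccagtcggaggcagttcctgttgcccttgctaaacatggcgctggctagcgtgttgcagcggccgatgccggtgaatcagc
Psmb6: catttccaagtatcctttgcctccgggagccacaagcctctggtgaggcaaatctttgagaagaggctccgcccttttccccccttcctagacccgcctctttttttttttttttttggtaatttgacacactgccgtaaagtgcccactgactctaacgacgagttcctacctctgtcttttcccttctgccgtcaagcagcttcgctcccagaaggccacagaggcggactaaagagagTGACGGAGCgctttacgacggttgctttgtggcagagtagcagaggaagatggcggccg
Psmd9: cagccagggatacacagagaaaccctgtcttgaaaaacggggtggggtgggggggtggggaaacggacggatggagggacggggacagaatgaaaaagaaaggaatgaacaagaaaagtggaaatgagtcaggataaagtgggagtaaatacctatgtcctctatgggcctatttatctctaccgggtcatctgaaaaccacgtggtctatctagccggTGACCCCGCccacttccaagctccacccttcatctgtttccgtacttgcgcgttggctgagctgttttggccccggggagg
Psmb8: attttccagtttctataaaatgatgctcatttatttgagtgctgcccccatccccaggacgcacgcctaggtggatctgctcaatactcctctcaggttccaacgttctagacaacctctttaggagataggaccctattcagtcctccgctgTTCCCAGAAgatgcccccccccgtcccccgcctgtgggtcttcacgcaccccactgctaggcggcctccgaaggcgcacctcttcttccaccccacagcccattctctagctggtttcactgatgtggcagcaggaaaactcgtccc
The TGACNNNGC match began at -47 from the start of Psmb5, at -9 in Psmb6 and at -31 in Psmd9, and the others lay in Psmc6, Psmd12 and Psme4. Besides Psmb8, TTCNNNGAA lay in Psmd2 of the cap and in the assembly gene Psmg1. GAAANNGAA was in 0 of 3 immunoproteasome promoters, so neither interferon motif was particular to these genes.

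The cap binds ubiquitin and drives proteins into the core. In WT mice 13 of its 17 genes rose on refeeding, 8 without overlap (median 0.29), beside 16.5% of all genes higher and 16.9% without overlap. In WT/Y657* mice 13 rose, 4 without overlap (median 0.26), beside 17.1% and 11.9%. On fasting 4 rose and 1 fell in WT mice (median 0.10), beside 32% of all genes called. In WT/Y657* mice 6 were called (median 0.13), beside 32.9%. These fasting counts of the cap are near the shares over all genes. In refed against fed mice all 17 had a positive difference and 16 were called in both genotypes, with medians of 0.45 and 0.42. Over all genes 27.5% and 26.1% were called there.

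Psmd14, the deubiquitinase of the cap, was at 55.1 to 65.1 CPM (median 56.5) in fed, 47.4 to 58.6 (53) in fasted and 73.9 to 91.2 (79.6) in refed WT mice. For WT/Y657* mice the range was 48.3 to 63.2 CPM (median 55.2) in fed, 45.9 to 61.2 (58.2) in fasted and 71.9 to 88.4 (80.9) in refed mice. In both genotypes refed mice lay above fed and fasted mice, and fed and fasted mice overlapped each other. Refeeding raised it by 0.63 ± 0.07 (adjusted p = 3.63e-08) in WT and 0.51 ± 0.07 (adjusted p = 1.7e-06) in WT/Y657* mice.

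Psmd4, a ubiquitin receptor of the cap, had a different course. It was at 86.3 to 91.2 CPM (median 87.8) in fed, 113 to 131 (118) in fasted and 105 to 137 (131) in refed WT mice and at 82.4 to 93.7 CPM (median 86.3) in fed, 115 to 139 (124) in fasted and 114 to 144 (124) in refed WT/Y657* mice. All fasted mice lay above all fed mice, and the refed mice overlapped the fasted. It rose on fasting by 0.45 ± 0.06 (adjusted p = 7.01e-07) in WT and 0.52 ± 0.06 (adjusted p = 5.2e-08) in WT/Y657* mice. The refeeding difference was 0.06 ± 0.06 (adjusted p = 0.509) in WT and 0.02 ± 0.06 (adjusted p = 0.869) in WT/Y657* mice. Psmd11, a subunit of the cap's lid, was called in no comparison by edgeR or DESeq2 (1 unadjusted p under 0.05 in 11 comparisons), and its group medians ran from 59.9 to 68 CPM over the 6 groups.

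The ATPases form the ring that unfolds substrates. Psmc6 was at 78.5 to 87.8 CPM (median 81.3) in fed, 79.8 to 102 (87.4) in fasted and 114 to 132 (123) in refed WT mice and at 74.3 to 86.6 CPM (median 79.5) in fed, 89.6 to 120.4 (100.4) in fasted and 108 to 139.6 (121) in refed WT/Y657* mice. Fasted genotypes overlapped, with a difference of 0.22 ± 0.07 (adjusted p = 0.0263). That call was lost without ONF_MT_923 (log2 0.16) or ONF_WT_807 (0.19), ONF_WT_824 (0.19) or ONF_WT_825 (0.21), with no filter (0.20), in a fit to the groups compared alone (0.24) and with the GC trend removed (0.09). Fasting raised it by 0.35 ± 0.07 (adjusted p = 8.37e-05) in WT/Y657* mice, and refed exceeded fed mice by 0.58 ± 0.07 (adjusted p = 4.75e-08) in WT and 0.60 ± 0.07 (adjusted p = 1.42e-08) in WT/Y657* mice. Psmc5 was at 59.2 to 70.2 CPM (median 65.9) in fed, 61.2 to 71.9 (64.9) in fasted and 80.9 to 101 (91.2) in refed WT mice and at 58.6 to 67.9 CPM (median 60.5) in fed, 54.6 to 67.2 (63.6) in fasted and 73.7 to 95.3 (81.5) in refed WT/Y657* mice. Refed mice lay above the rest, and refeeding raised Psmc5 by 0.48 ± 0.07 (adjusted p = 4.36e-07) and 0.43 ± 0.07 (adjusted p = 2.93e-06). Psmc4 was at 86.9 to 105 CPM (median 93.2) in fed, 87 to 99.3 (95.1) in fasted and 119.6 to 139 (134) in refed WT mice and at 73.6 to 99.2 CPM (median 91.8) in fed, 80.6 to 111 (103) in fasted and 114 to 146 (136) in refed WT/Y657* mice. Refed mice were again above the rest, by 0.48 ± 0.07 (adjusted p = 1.69e-06) and 0.42 ± 0.07 (adjusted p = 1.85e-05) against fasted mice. All 3 had their highest group medians in refed mice.

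The other 3 ATPases were called on fasting in WT mice, Psmc1 and Psmc3 higher and Psmc2 lower. Psmc1 was at 85.1 to 96.2 CPM (median 91.8) in fed, 95.5 to 115 (111) in fasted and 108 to 133 (117) in refed WT mice and at 86.6 to 97.5 CPM (median 90.1) in fed, 87.7 to 113 (106) in fasted and 101 to 130.0 (113) in refed WT/Y657* mice. It rose on fasting by 0.26 ± 0.07 (adjusted p = 0.00319) in WT and 0.20 ± 0.07 (adjusted p = 0.0187) in WT/Y657* mice. Psmc2 was at 84.4 to 92.3 CPM (median 87.6) in fed, 72.7 to 80.6 (77.3) in fasted and 92.4 to 119 (102) in refed WT mice and at 74.1 to 89.6 CPM (median 81.6) in fed, 77 to 91.7 (80.4) in fasted and 87.6 to 109.7 (105) in refed WT/Y657* mice. In WT mice it fell on fasting (-0.19 ± 0.06, adjusted p = 0.0198), with no fasted mouse in the range of fed ones, a call lost with the GC trend removed (log2 -0.14). Psmc3 was at 107 to 117 CPM (median 111) in fed, 118 to 132 (126) in fasted and 143 to 162 (154) in refed WT mice and at 102 to 121 CPM (median 114) in fed, 103 to 139 (129) in fasted and 134 to 166 (149) in refed WT/Y657* mice. It rose on fasting in WT mice (0.17 ± 0.06, adjusted p = 0.0279) without overlap, a call lost without ONF_WT_919 or ONF_WT_920 or ALC_WT_848 or ALC_WT_850 (log2 0.16 to 0.17), with no filter and with the GC trend removed. Psmc3 overlaps Slc39a13 on the other strand.

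Among the scaffold and lid genes, Psmd2, a scaffold of the base, was at 177 to 194 CPM (median 184) in fed, 163 to 195 (182) in fasted and 193 to 244 (223) in refed WT mice and at 160.0 to 181 CPM (median 179) in fed, 129 to 175 (164) in fasted and 198 to 234 (223) in refed WT/Y657* mice. Refed WT/Y657* mice lay above fasted ones, by 0.47 ± 0.07 (adjusted p = 7.91e-07). Psmd3, of the lid, was at 76.2 to 84.3 CPM (median 80.6) in fed, 84.2 to 95.7 (90.7) in fasted and 94.7 to 120.4 (113) in refed WT mice and at 73.8 to 85.7 CPM (median 80.9) in fed, 69.7 to 95.8 (84.8) in fasted and 93.6 to 127 (115) in refed WT/Y657* mice, where it rose on refeeding by 0.44 ± 0.07 (adjusted p = 1.5e-05). Refed and fasted WT/Y657* mice overlapped for Psmd3. Psmd6, also of the lid, was at 63.9 to 70.2 CPM (median 67.4) in fed, 64.1 to 83 (77) in fasted and 84 to 111 (92.8) in refed WT mice and at 60.9 to 75.9 CPM (median 66) in fed, 70.7 to 89.1 (81.9) in fasted and 86.4 to 99 (91.9) in refed WT/Y657* mice, where it rose on fasting by 0.27 ± 0.07 (adjusted p = 0.00197). Psmd8, a lid subunit, was at 95.1 to 108 CPM (median 101) in fed, 94.5 to 116 (114) in fasted and 112 to 132 (125) in refed WT mice and at 96.4 to 113 CPM (median 103) in fed, 102 to 165 (122) in fasted and 121 to 147 (133) in refed WT/Y657* mice, where it rose on fasting by 0.27 ± 0.07 (adjusted p = 0.00422). Without ONF_MT_827, the highest of its group, that value was 0.18 (adjusted p = 0.0299). Fed and fasted WT/Y657* mice overlapped for Psmd6 and Psmd8. Psmd1, Psmd7, Psmd12 and Psmd13 all rose on refeeding in WT mice, by 0.24 to 0.38.

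**Figure D3:**
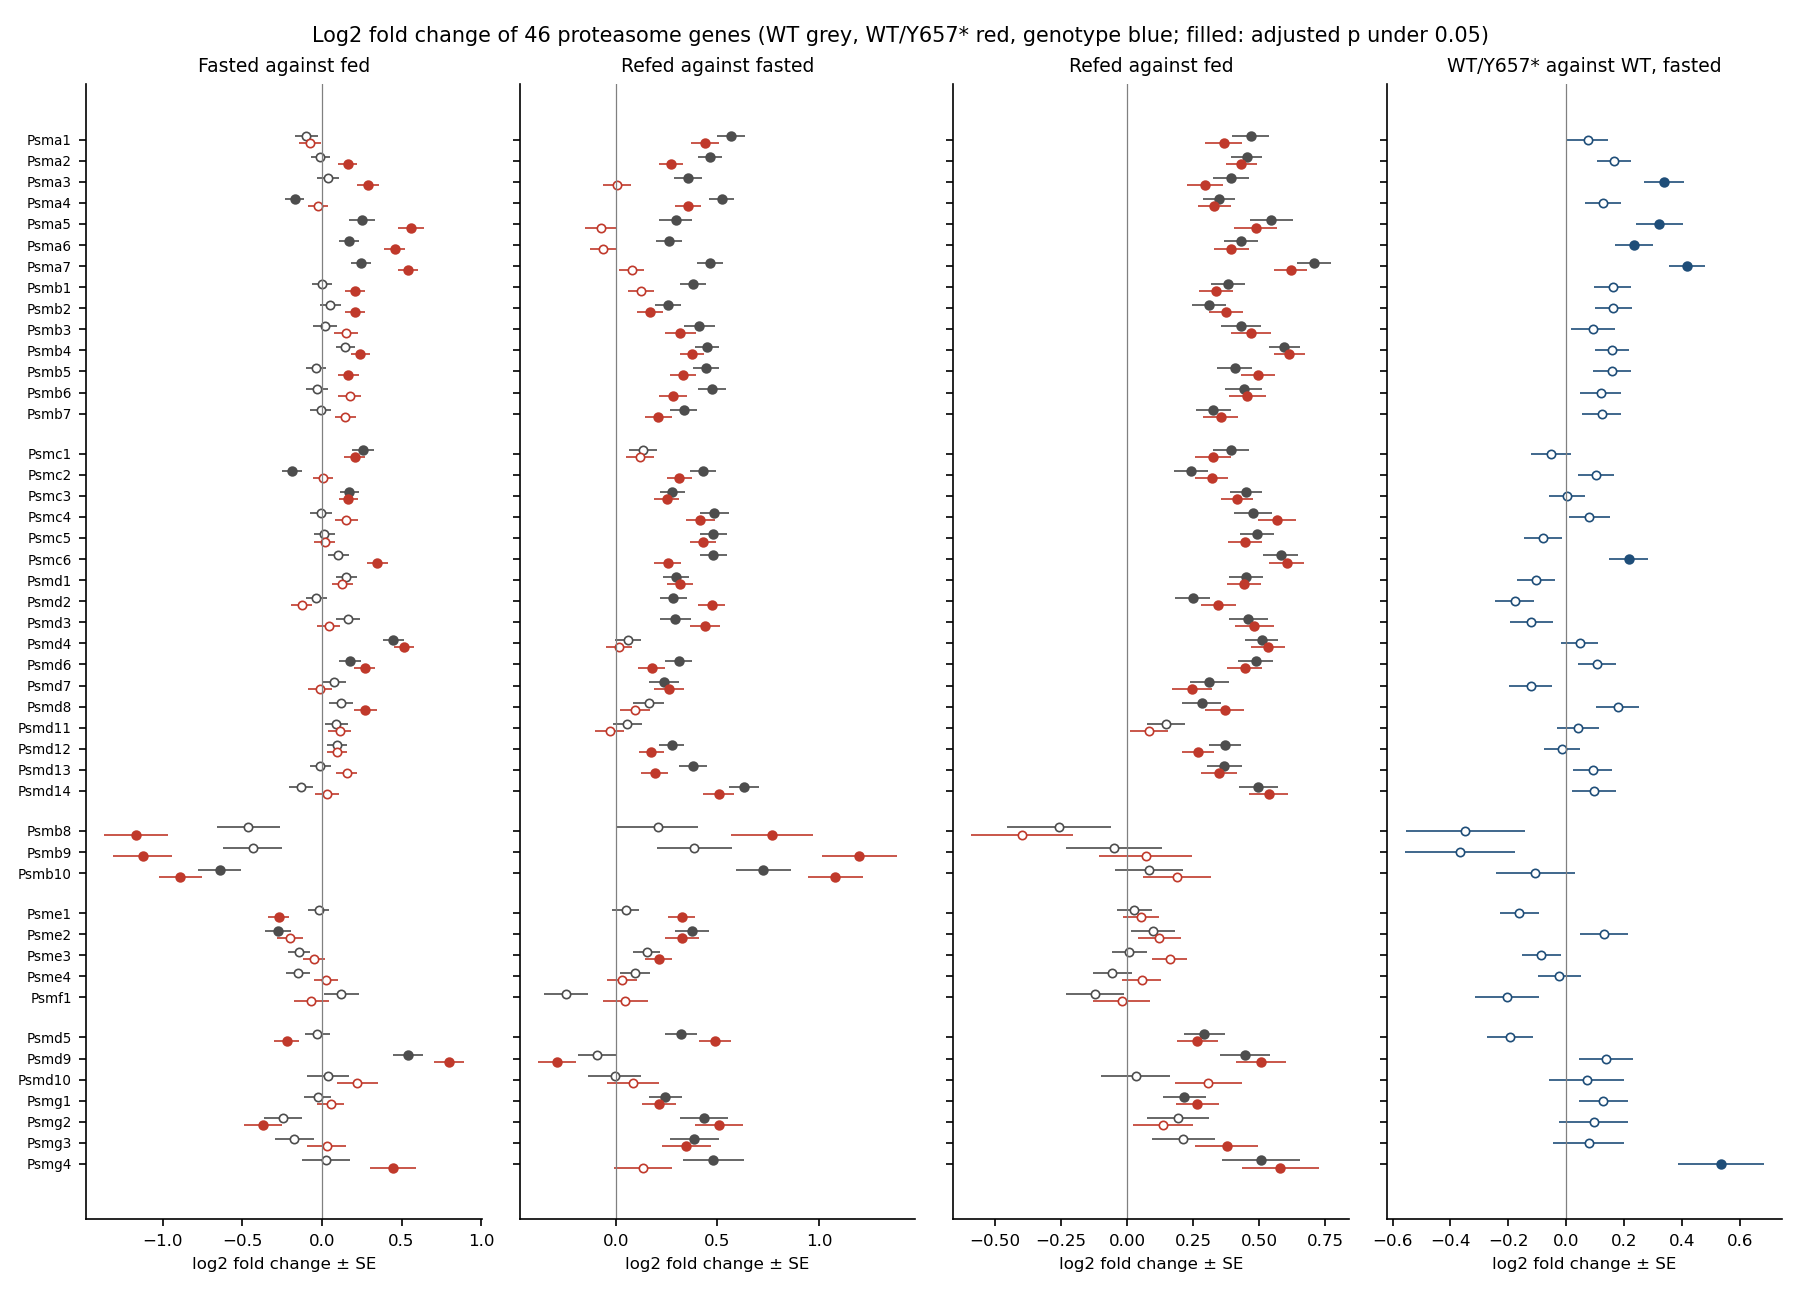
Log2 fold change ± SE of 46 proteasome genes in 4 panels by comparison, with genes by class and filled points for an adjusted p under 0.05. Psma8, Psmb11 and Psmc3ip are not drawn. On refeeding 35 of all 49 genes were called in WT mice and 34 in WT/Y657* mice, counts that include Psmc3ip in both genotypes. The immunoproteasome genes reached 1.20 (Psmb9) in WT/Y657* mice.

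The immunoproteasome genes took another course, with low levels in fasted mice. On fasting all 3 fell in WT/Y657* mice (median -1.13), beside 17.7% of all genes lower. In WT mice Psmb10 fell (median of the 3 -0.46), beside 17.5% lower. On refeeding all 3 rose in WT/Y657* mice (median 1.08), each without overlap, beside 17.1% of all genes higher and 11.9% without overlap. In WT mice Psmb10 rose, beside 16.5% higher. In refed against fed mice edgeR called 0 of the 3 in either genotype, with 0 at an unadjusted p under 0.05 in WT mice and 1, Psmb8, in WT/Y657* mice, and 0 by the likelihood ratio test and DESeq2.

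Psmb8, which replaces Psmb5, was at 19.4 to 30.2 CPM (median 25) in fed, 15 to 21.8 (17.5) in fasted and 13.8 to 37.3 (18) in refed WT mice. Among WT/Y657* mice it was at 23.8 to 45.4 CPM (median 29.7) in fed, 9.37 to 16.9 (14.7) in fasted and 18.1 to 38.7 (20.9) in refed mice. Fasted and fed WT/Y657* mice did not overlap. It fell on fasting in WT/Y657* mice (-1.17 ± 0.20, adjusted p = 2.76e-05), and the WT value was -0.46 ± 0.20 (adjusted p = 0.0748), which DESeq2 called and edgeR did not. Refeeding raised it by 0.77 ± 0.20 (adjusted p = 0.0035) in WT/Y657* mice, and the WT value was 0.21 ± 0.20 (adjusted p = 0.476). Among refed WT mice RF6_WT_828 was at 37.3 CPM and the next highest at 21.6, so 1 mouse weighs on the WT value. Psmb8 overlaps Gm20496 on the other strand and shares 11.9% of its 50-base windows.

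Psmb9, which replaces Psmb6, was at 11.7 to 14.8 CPM (median 12.8) in fed, 7.92 to 11 (9.61) in fasted and 8.75 to 18.6 (11.2) in refed WT mice. The WT/Y657* mice had 13.5 to 25.5 CPM (median 14.5) in fed, 5.59 to 9.25 (7.46) in fasted and 10.7 to 23.5 (16.6) in refed mice. Fed mice lay above fasted mice in both genotypes, although the WT difference of -0.44 ± 0.18 (adjusted p = 0.0691) was not called. In WT/Y657* mice it fell on fasting (-1.13 ± 0.19, adjusted p = 1.13e-05) and rose on refeeding (1.20 ± 0.19, adjusted p = 4.96e-06). The refeeding value in WT mice was 0.39 ± 0.18 (adjusted p = 0.113). Psmb9 overlaps Tap1 on the other strand.

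Psmb10, which replaces Psmb7, was at 20.6 to 29.9 CPM (median 24.5) in fed, 13.5 to 19.4 (15.6) in fasted and 19.7 to 32.2 (27.3) in refed WT mice. Levels of WT/Y657* mice were 22.7 to 37.1 CPM (median 25.9) in fed, 13 to 16.4 (14.9) in fasted and 23.2 to 43.8 (30.4) in refed mice. All fasted mice lay below all fed and all refed mice, in both genotypes. It fell on fasting in both, with -0.64 ± 0.13 (adjusted p = 0.00026) in WT and -0.89 ± 0.13 (adjusted p = 2.12e-06) in WT/Y657* mice, and rose on refeeding by 0.73 ± 0.13 (adjusted p = 5.89e-05) and 1.08 ± 0.13 (adjusted p = 7.31e-08). The immunoproteasome genes lie apart from one another in part, with Psmb8 and Psmb9 beside Tap1 on chromosome 17 and Psmb10 on chromosome 8.

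The genotypes were also compared for these 3 genes. In the fasted state the difference was -0.35 ± 0.20 (adjusted p = 0.276) for Psmb8, -0.37 ± 0.19 (adjusted p = 0.212) for Psmb9 and -0.11 ± 0.14 (adjusted p = 0.674) for Psmb10, the last running from -0.15 to -0.04 with 1 mouse left out at a time. In the fed state it was 0.36 ± 0.19 (adjusted p = 0.34) for Psmb8, 0.32 ± 0.18 (adjusted p = 0.344) for Psmb9 and 0.14 ± 0.13 (adjusted p = 0.612) for Psmb10. These fed values were 0.23, 0.15 and 0.04 without ALC_MT_868, which had the highest Psmb9 level of its group. In the refed state all 3 differences were positive, 0.22 ± 0.20 (adjusted p = 0.748) for Psmb8, 0.44 ± 0.18 (adjusted p = 0.4) for Psmb9 and 0.25 ± 0.13 (adjusted p = 0.549) for Psmb10, and they were 0.03, 0.33 and 0.13 without RF6_MT_898. Without RF6_WT_828 they were 0.45, 0.58 and 0.31. Within the states edgeR called 0 of the 3, with 1, Psmb9 in refed mice, at an unadjusted p under 0.05 and 0 by the likelihood ratio test and by DESeq2. The interaction with fasting was -0.70 ± 0.28 (adjusted p = 0.155) for Psmb8, -0.69 ± 0.26 (adjusted p = 0.126) for Psmb9 and -0.25 ± 0.19 (adjusted p = 0.502) for Psmb10. Here edgeR called 0 of 3, with 2 at an unadjusted p under 0.05 and 0 by the likelihood ratio test and by DESeq2. Over all genes 2664 of 13945 had an unadjusted p under 0.05 in that interaction. Each interaction contains a fed or refed genotype difference, so it depends on the mice named above too. The fed difference of Psmb10 was 0.14, and 0.04 without ALC_MT_868. The interaction with refeeding was 0.56 ± 0.28 (adjusted p = 0.338) for Psmb8, 0.81 ± 0.26 (adjusted p = 0.0986) for Psmb9 and 0.35 ± 0.19 (adjusted p = 0.37) for Psmb10. There 0 were called by edgeR, the likelihood ratio test and DESeq2, and 1 had an unadjusted p under 0.05, beside 2163 of all 13945 genes.

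Markers of immune cells were measured beside these genes. In bulk liver, fewer cells of a type and less RNA per cell cannot be told apart. The summed level of 10 lymphocyte markers was 12.2 to 21.3 CPM (median 15.7) in fed, 17 to 27.5 (21.8) in fasted and 15.3 to 41 (17.5) in refed WT mice. Among WT/Y657* mice the sum was 16.4 to 50.4 CPM (median 24.8) in fed, 19.1 to 34.7 (23.8) in fasted and 19.3 to 48.1 (22.8) in refed mice. Ptprc, which other leukocytes also carry, made up most of this sum, with a mean of 12.9 of 16.4 CPM in fed WT mice. Summed levels over 40 CPM occurred in ALC_MT_866 and ALC_MT_868, RF6_MT_898 and RF6_WT_828. The summed level of 7 Kupffer cell markers, led by Clec4f or Cd5l, was 234 to 325 CPM (median 275) in fed, 275 to 502 (353) in fasted and 238 to 526 (282) in refed WT mice and 219 to 778 CPM (median 496) in fed, 279 to 469 (359) in fasted and 248 to 701.7 (336) in refed WT/Y657* mice. No marker of either list was at 0 in all mice of a group. The 4 mice over 40 CPM also had the highest Kupffer sums of the 36, so leaving them out does not single out lymphocytes. From the fed to the fasted state the medians of both sums were higher in WT mice and lower in WT/Y657* mice. Of 7 lymphocyte markers tested, 1 rose and 1 fell on fasting in WT mice, beside 32% of all genes called. In WT/Y657* mice 1 fell, beside 32.9%. For the interaction with fasting 1 lymphocyte marker was called, negative (median -0.69), and 0 of 7 Kupffer markers (median -0.81), beside 4.35% of all genes. On refeeding 0 of either list were called in either genotype, beside 30.2% of all genes in WT and 31.3% in WT/Y657* mice. The part of these cells in the immunoproteasome changes was not tested. Without the 4 mice, whose limit was set after the data were seen, the immunoproteasome calls of both genotypes on fasting and refeeding were kept, and the fed genotype difference of Psmb10 was -0.03 in place of 0.14. Among the values of named members checked, no other changed in sign. Without those mice edgeR called 0 of 49 in either interaction, with values of 0.32 (adjusted p = 0.0521) for Psma7 with fasting and of -0.35 (adjusted p = 0.0646) for Psma7 and -0.29 (adjusted p = 0.153) for Psma3 with refeeding.

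**Figure D4:**
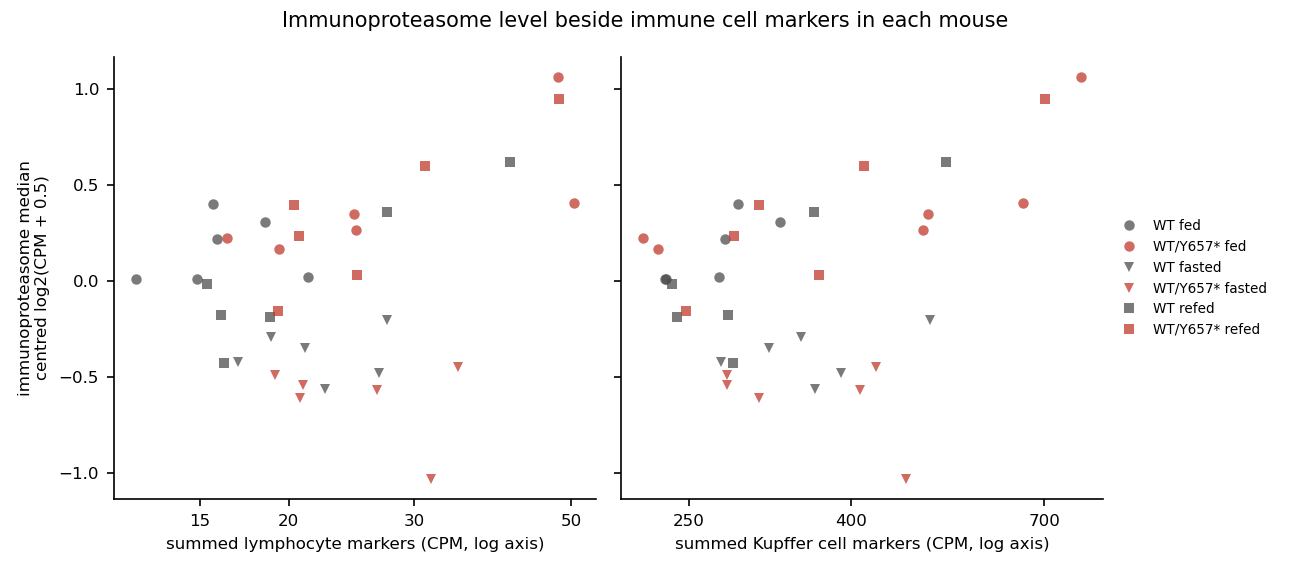
Immunoproteasome class median per mouse (log2, centred) against the summed CPM of lymphocyte markers and of Kupffer cell markers, both on log axes, 36 mice by group. Fasted mice lie low on the vertical axis at lymphocyte sums of 17 to 27.5 CPM (WT) and 19.1 to 34.7 CPM (WT/Y657*), and the highest sum is 50.4 CPM.

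Other genes of MHC class I presentation and interferon gamma signalling, a list of 13, mostly fell on fasting in WT/Y657* mice. There 1 rose and 10 fell (median -0.44), beside 32.9% of all genes called (15.2% higher and 17.7% lower). In WT mice 5 fell (median -0.03), beside 32% called (17.5% lower). On refeeding 7 rose and 1 fell in WT/Y657* mice, beside 31.3% of all genes called. In WT mice 3 rose and 3 fell, beside 30.2%. Between fasted genotypes 4 were lower in WT/Y657* mice, beside 13.1% of all genes called, and fed ones differed in 1 (Pdia3), beside 2.37%. Tap1, a transporter of peptides for MHC class I, was at 26.4 to 35.6 (median 31.2) CPM in fasted WT and 15.9 to 20.5 (median 19.7) CPM in fasted WT/Y657* mice, without overlap. Its fasted genotype difference was -0.72 ± 0.16 (adjusted p = 0.00338), with interactions of -0.95 ± 0.23 (adjusted p = 0.0142) with fasting and 0.99 ± 0.23 (adjusted p = 0.0188) with refeeding. In refed against fed mice 2 fell in WT mice, beside 27.5% of all genes called. In WT/Y657* mice 2 rose and 2 fell, beside 26.1%. Over the list 3 interactions with fasting were called, all negative, beside 4.35% of all genes, and 2 with refeeding, both positive, beside 2.06%.

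Activators open the core in place of the cap. Psme1, whose product pairs with that of Psme2 in an activator induced by interferon gamma, was at 59.3 to 72.8 CPM (median 63.4) in fed, 59.7 to 69 (64.5) in fasted and 58.6 to 72.6 (66.7) in refed WT mice and at 61.1 to 81.7 CPM (median 68.8) in fed, 52.3 to 66.7 (56.8) in fasted and 64.6 to 76.8 (73.7) in refed WT/Y657* mice. Groups overlapped throughout, but in WT/Y657* mice it fell on fasting (-0.27 ± 0.07, adjusted p = 0.00173) and rose on refeeding (0.32 ± 0.07, adjusted p = 0.000258). Its partner Psme2 was at 37.5 to 50.4 CPM (median 43.6) in fed, 32.7 to 38.1 (35.7) in fasted and 41.1 to 53.6 (46.9) in refed WT mice and at 39.2 to 52.9 CPM (median 45.2) in fed, 33.7 to 46.8 (39.1) in fasted and 41.2 to 55.8 (49.8) in refed WT/Y657* mice. Psme2 fell on fasting in WT mice (-0.28 ± 0.08, adjusted p = 0.00912), and rose on refeeding by 0.38 ± 0.08 (adjusted p = 0.000559) in WT and 0.32 ± 0.08 (adjusted p = 0.00234) in WT/Y657* mice. Refed and fasted WT mice did not overlap for Psme2, of which 28.3% of windows are shared with other genes. The pair lies together on chromosome 14. Psme3, an activator of the nucleus, was at 33.3 to 40.1 CPM (median 35.9) in fed, 32 to 37.9 (35.5) in fasted and 37.8 to 45.2 (39.98) in refed WT/Y657* mice, and rose on refeeding there by 0.21 ± 0.07 (adjusted p = 0.0144). That call was lost without RF6_MT_817 (log2 0.18) and with the gene length trend removed (0.12). Psme4 and the regulator Psmf1 were called in no comparison by edgeR or DESeq2, with an unadjusted p under 0.05 in 2 and 1 comparisons. In refed against fed mice edgeR called 0 of the 5 activator genes in either genotype, with 0 at an unadjusted p under 0.05 in WT and 1 (Psme3) in WT/Y657* mice, and 0 by the likelihood ratio test and DESeq2.

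Of the assembly chaperones, Psmd9, which helps build the base of the cap, was at 24 to 30.5 CPM (median 26.8) in fed, 33.4 to 46.5 (38.5) in fasted and 32.3 to 39.3 (36.8) in refed WT mice. For WT/Y657* mice the range was 21.5 to 30.2 CPM (median 24.5) in fed, 35.9 to 53.6 (42.6) in fasted and 31.4 to 43.5 (33.8) in refed mice. All fasted mice lay above all fed mice, and refed mice lay above fed mice too. Fasting raised it by 0.54 ± 0.09 (adjusted p = 2.21e-05) in WT and 0.80 ± 0.09 (adjusted p = 1.8e-08) in WT/Y657* mice. It fell on refeeding in WT/Y657* mice (-0.29 ± 0.09, adjusted p = 0.0151), a call lost without ONF_MT_922 (log2 -0.22) and under library size alone (-0.19). Psmd9 shares windows with other genes and overlaps Gm26745 on the other strand. Psmd5, also of the base, was at 33.2 to 37.1 CPM (median 35.8) in fed, 31.7 to 36.2 (35.4) in fasted and 36.7 to 49.3 (43.2) in refed WT mice and at 30.8 to 38.6 CPM (median 36.4) in fed, 26.2 to 34.4 (30.8) in fasted and 37.2 to 52.8 (40.8) in refed WT/Y657* mice. Refed mice lay above fasted mice in both genotypes, by 0.32 ± 0.08 (adjusted p = 0.00167) and 0.49 ± 0.08 (adjusted p = 7.94e-06). Its fall on fasting in WT/Y657* mice (-0.22 ± 0.08, adjusted p = 0.028) was lost without ONF_MT_827 or ONF_MT_922 or ALC_MT_859 or ALC_MT_868 (log2 -0.21 to -0.18), in a fit to the groups compared alone and with the gene length trend removed.

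The other 4 chaperones listed as Psmg help build the core. Psmg4 was at 3.7 to 4.24 CPM (median 3.87) in fed, 2.88 to 4.94 (4.15) in fasted and 4.28 to 6.7 (5.64) in refed WT mice and at 2.79 to 4.93 CPM (median 4.68) in fed, 5.1 to 7.03 (5.53) in fasted and 4.94 to 7.22 (6.47) in refed WT/Y657* mice. The fasted genotypes did not overlap, and their difference was 0.54 ± 0.15 (adjusted p = 0.0136), a call lost without ONF_MT_806 (log2 0.47) and with the gene length trend removed (0.29). It rose on fasting by 0.45 ± 0.15 (adjusted p = 0.0166) in WT/Y657* mice, a call lost without ONF_MT_806 (0.38) or ALC_MT_866 (0.35), in a fit to the groups compared alone, without the 4 mice over the lymphocyte limit (0.35) and with the gene length trend removed (0.31). Psmg2 was at 7.18 to 11.7 CPM (median 10.4) in fed, 7.44 to 8.82 (8.45) in fasted and 9.66 to 13 (10.7) in refed WT mice and at 9.86 to 12.6 CPM (median 11.6) in fed, 6.95 to 11.5 (8.52) in fasted and 10.2 to 14.8 (12.7) in refed WT/Y657* mice. It rose on refeeding by 0.44 ± 0.12 (adjusted p = 0.00431) and 0.51 ± 0.12 (adjusted p = 0.00088), and fell on fasting in WT/Y657* mice (-0.37 ± 0.12, adjusted p = 0.0132). Psmg3 was at 7.08 to 9.63 CPM (median 8.46) in fed, 6.23 to 9.07 (7.65) in fasted and 8.55 to 12.8 (9.24) in refed WT mice and at 6.21 to 9.56 CPM (median 7.5) in fed, 6.8 to 8.95 (7.97) in fasted and 8.73 to 10.8 (10.3) in refed WT/Y657* mice. Its rise on refeeding, 0.39 ± 0.12 (adjusted p = 0.013) in WT and 0.35 ± 0.12 (adjusted p = 0.0243) in WT/Y657* mice, was lost in WT mice without RF6_WT_828 (0.30). In WT/Y657* mice it was lost without ONF_MT_806, ONF_MT_921 or ONF_MT_922 or RF6_MT_817 (0.31 to 0.33) and with the gene length trend removed. Psmg1 was at 14.1 to 16.4 CPM (median 15) in fed, 13 to 16.3 (15) in fasted and 15.6 to 19.1 (17.3) in refed WT mice and at 13.3 to 18.5 CPM (median 15.3) in fed, 14.5 to 19 (15.8) in fasted and 15.7 to 20.9 (18.9) in refed WT/Y657* mice. It was higher in refed than in fed mice by 0.22 ± 0.08 (adjusted p = 0.046) in WT and 0.27 ± 0.08 (adjusted p = 0.0138) in WT/Y657* mice. The WT call was lost without ALC_WT_847, ALC_WT_848, ALC_WT_849, ALC_WT_850 or ALC_WT_860 or RF6_WT_815, RF6_WT_816, RF6_WT_896, RF6_WT_900 or RF6_WT_901 (0.19 to 0.23), under DESeq2 (0.21) and with DESeq2's size factors in edgeR (0.21). Both calls were lost with no filter (0.21 and 0.26) or with the gene length trend removed (0.07 and 0.15), and the WT/Y657* call also in a fit to the groups compared alone (0.26) and without the 4 mice over the lymphocyte limit (0.20). Psmd10, or gankyrin, was called in no comparison by edgeR or DESeq2, with an unadjusted p under 0.05 in 1.

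The tissue variants were near the floor of detection, Psma8 between 0.143 and 2.0 CPM and Psmb11 between 0.222 and 1.7 CPM in single mice. Neither was called in any comparison by edgeR or DESeq2, with an unadjusted p under 0.05 in 0 (Psma8) and 1 (Psmb11). Psmc3ip was at 4.18 to 6.43 CPM (median 5.54) in fed, 3.0 to 6.05 (3.92) in fasted and 5.8 to 8.11 (6.83) in refed WT mice and at 4.39 to 6.18 CPM (median 5.04) in fed, 4.78 to 7.1 (5.19) in fasted and 6.1 to 10.2 (7.22) in refed WT/Y657* mice. It rose on refeeding by 0.73 ± 0.15 (adjusted p = 0.000224) in WT and 0.48 ± 0.14 (adjusted p = 0.00954) in WT/Y657* mice. It fell on fasting in WT mice (-0.41 ± 0.15, adjusted p = 0.0339), a call lost without ONF_WT_807, ONF_WT_824, ONF_WT_919 or ONF_WT_920 or ALC_WT_847, ALC_WT_849, ALC_WT_850 or ALC_WT_860 (log2 -0.41 to -0.33), with no filter and in a fit to the groups compared alone.

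Of 18 listed partners of the proteasome outside this nomenclature, 17 were found and tested. On refeeding 5 rose and 2 fell in WT mice, beside 30.2% of all genes called (16.5% higher and 13.7% lower). In WT/Y657* mice 7 rose and 2 fell, beside 31.3% (17.1% higher and 14.2% lower). Against fed mice 8 were higher in refed WT mice, beside 27.5% of all genes called. In refed WT/Y657* mice 7 were higher and 1 lower, beside 26.1%. Pomp, which matures the core, was at 67.7 to 75.7 (median 73.5) CPM in fasted and 90.4 to 114 (median 102) CPM in refed WT mice, without overlap, and rose by 0.50 ± 0.06 (adjusted p = 2.06e-07) in WT and 0.25 ± 0.06 (adjusted p = 0.00224) in WT/Y657* mice. Txnl1, which binds the cap, rose by 0.50 ± 0.07 (adjusted p = 2.28e-07) and 0.27 ± 0.06 (adjusted p = 0.00162). On fasting 5 rose and 2 fell in WT mice, beside 32% of all genes called. In WT/Y657* mice 3 rose and 4 fell, beside 32.9%. The fasted genotypes differed in 3, with 2 higher and 1 lower in WT/Y657* mice, beside 13.1% of all genes called. The interaction with refeeding was negative for 1, beside 2.06% called. It was Sem1, a small subunit of the cap listed as Shfm1 (-0.41 ± 0.10, adjusted p = 0.0223).

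The Nrf1 and Nrf2 pathway was read from a list of 9 genes, 8 of them tested. Nfe2l1 was at 105 to 124 CPM (median 110.3) in fed, 169 to 204 (185) in fasted and 89.3 to 97.7 (93.3) in refed WT mice and at 104 to 113 CPM (median 105) in fed, 120.0 to 163 (150.1) in fasted and 89.4 to 132 (105) in refed WT/Y657* mice. Fasted WT mice lay above all fed and refed WT mice. Fasting raised it by 0.72 ± 0.08 (adjusted p = 1.31e-09) in WT and 0.45 ± 0.07 (adjusted p = 1.14e-05) in WT/Y657* mice, and on refeeding it fell, with -0.99 ± 0.08 (adjusted p = 2.76e-12) and -0.43 ± 0.07 (adjusted p = 2.17e-05). Its fasted genotype difference was -0.35 ± 0.07 (adjusted p = 0.00149), and its interaction with refeeding was 0.56 ± 0.11 (adjusted p = 0.00413). Ddi2, the protease that releases Nfe2l1, fell on refeeding, with -0.66 ± 0.08 (adjusted p = 3.88e-08) in WT and -0.44 ± 0.08 (adjusted p = 2.9e-05) in WT/Y657* mice. Nfe2l2 was higher in fed WT/Y657* mice (0.41 ± 0.08, adjusted p = 0.00427), lower in fasted ones (-0.26 ± 0.08, adjusted p = 0.0228) and had an interaction with fasting of -0.66 ± 0.11 (adjusted p = 0.000657). Over the list 2 rose and 1 fell on fasting in WT mice, beside 32% of all genes called. In WT/Y657* mice 2 rose and 2 fell, beside 32.9%. On refeeding 2 fell in WT mice, beside 30.2% of all genes called, and 2 rose and 2 fell in WT/Y657* mice, beside 31.3%. Against fed mice 3 were lower in refed WT mice, beside 27.5% of all genes called. In refed WT/Y657* mice 2 were higher and 2 lower, beside 26.1%. By genotype 1 was higher and 1 lower fed, beside 2.37% of all genes called, and 4 were lower fasted, beside 13.1%. Interactions with fasting were positive for 1 and negative for 2, beside 4.35% of all genes called. With refeeding 1 was positive, beside 2.06%.

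A list of 6 genes covered the ubiquitin tag and the enzymes that activate it. On fasting it showed 1 rise and 2 falls in WT mice, beside 32% of all genes called. There were 2 rises and 2 falls in WT/Y657* mice, beside 32.9%. On refeeding 1 rose and 1 fell in WT mice, beside 30.2% of all genes called, and 1 rose in WT/Y657* mice, beside 31.3%. Between fasted genotypes 2 were higher and 1 lower in WT/Y657* mice, beside 13.1% of all genes called. The lower gene was Uba1, an activating enzyme (-0.22 ± 0.06, adjusted p = 0.0103). Rps27a, a fusion of ubiquitin with a ribosomal protein, was at 39.5 to 56.6 (median 49.5) CPM in fasted WT and 61.7 to 87.6 (median 74.1) CPM in fasted WT/Y657* mice, a difference of 0.61 ± 0.09 (adjusted p = 4.84e-05). Its interactions were 0.63 ± 0.13 (adjusted p = 0.00492) with fasting and -0.60 ± 0.13 (adjusted p = 0.0132) with refeeding. Of 7 genes of the unfoldase Vcp and its cofactors, 4 rose and 1 fell on refeeding in each genotype, beside 30.2% and 31.3% of all genes called. Vcp rose by 0.25 ± 0.07 (adjusted p = 0.00486) in WT and 0.33 ± 0.07 (adjusted p = 0.000316) in WT/Y657* mice. On fasting 1 rose and 1 fell in WT mice, beside 32% of all genes called, and 2 rose and 3 fell in WT/Y657* mice, beside 32.9%.

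Markers of the liver's other cells were read for the same mice. Of 9 hepatocyte markers 8 were found, with Alb most abundant in each group, and their summed medians ran from 78420 to 102425 CPM over the 6 groups. Summed medians of 6 sinusoidal endothelial markers, led by Stab2, ran from 275 to 354 CPM. Those of 6 stellate and fibroblast markers, led by Dcn or Reln, ran from 329 to 461 CPM, and those of 5 cholangiocyte markers, led by Spp1, from 24.1 to 50.6 CPM. On refeeding 3 hepatocyte, 2 endothelial and 2 stellate markers fell and 1 stellate marker rose in WT mice, and 1 hepatocyte, 3 endothelial and 1 stellate marker fell and 1 stellate marker rose in WT/Y657* mice. Refed against fed WT mice had 4 hepatocyte, 3 stellate and 2 cholangiocyte markers lower and 1 endothelial marker higher, and the WT/Y657* mice had 3 hepatocyte, 3 stellate and 1 endothelial marker lower. On fasting 3 hepatocyte, 2 stellate and 1 cholangiocyte marker fell and 2 hepatocyte and 3 endothelial markers rose in WT mice, and 3 stellate and 1 cholangiocyte marker fell and 2 hepatocyte markers rose in WT/Y657* mice. Between fasted genotypes 1 endothelial and 1 stellate marker were higher and 1 hepatocyte marker lower in WT/Y657* mice, and between fed genotypes 1 lymphocyte and 1 stellate marker were higher. Over all genes 30.2% were called on refeeding in WT and 31.3% in WT/Y657* mice, and 32% and 32.9% on fasting. Refed against fed mice had 27.5% and 26.1% called, fasted genotypes 13.1% and fed genotypes 2.37%. The part of cell numbers in the members' changes was not tested.

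Near-copies limit single genes. Of the 49 genes 29 share at least 1 window of 50 bases with another gene and 11 share over 10%. On the other strand 12 overlap a gene, and the strand setting of the counting is not stated. On the same strand 3 overlap a gene, Psmb5 with Mir686, Psmd1 with Gm21972 and Psmg3 with Gm26938. Apart from those named above, Psmd2 and Psmb3 each shared 17.8% of windows, Psmc3ip 17.6% and Psmc1 14.1%. For Psmd9 the share was 24.95% and for Psma4 14.35%.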

How the data were processed

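RNA of 36 livers was sequenced by the study's authors. The values are expected (estimated) counts per gene and mouse. The authors aligned and counted the reads and deposited these expected counts without normalization, per the file headers. Of the non-zero values, 3.33% were not whole (tolerance 1e-09) and were rounded. Per the labels, Cuffdiff, SAMtools, featureCounts and edgeR were used, without versions, and the build was mm9, whereas 99.7% of the gene loci overlap the same gene of GENCODE M21 (GRCm38), which was used for coordinates, lengths and overlaps. A table of the authors' fitted values was left out because it holds 1 level per group.

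Genes were filtered with filterByExpr by group (13945 kept), scaled by TMM and fitted in edgeR 4.0.16 (R 4.3.3, limma 3.58.1) with 1 coefficient per group, robust quasi-likelihood tests (two-sided) and Benjamini-Hochberg adjustment over all genes. Residual degrees of freedom were 30 and the common BCV (biological coefficient of variation, 1 value for all genes) was 0.181. The tests used a spread estimated for each gene, so the precision differs between genes and is not set by this value. The pipeline was tested on simulated data. Alternatives were the likelihood ratio test, DESeq2 1.42.0, its size factors in edgeR, library size alone, no filter, the groups compared alone, mouse number series as a covariate, removal of trends with gene length or GC content, leaving out each mouse, and, chosen after seeing the data, leaving out 4 mice with lymphocyte marker sums over 40 CPM. No pair of libraries shared counts beyond chance (90 pairs within groups, smallest ratio of chi-square to its degrees of freedom 6.54).

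Members and lists were chosen with earlier results of these data known. The lists were proteasome partners, the Nrf1 and Nrf2 pathway, ubiquitin and its activating enzymes, Vcp and cofactors, MHC class I and interferon gamma genes, and markers of lymphocytes, Kupffer cells, sinusoidal endothelium, stellate cells and fibroblasts, cholangiocytes and hepatocytes. Levels are given for the immunoproteasome genes, Psmb5, Psmb6, Psmb7, Psme1 and Psme2, and for up to 4 called members with the smallest p per class and comparison; list genes are up to 4 called genes with the smallest p. The values of some list genes are not reported here, though the lists' counts and medians include them.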

Additional observations from a re-analysis of the deposited data

Results flagged for a closer look

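In 216 sets (36 genes in 6 groups of 6 mice), 16 had 1 mouse far from the others, judged by its gap to the next mouse as a share of the group's range. Chance flags about 1 in 20 groups. ONF_MT_806 was lowest for Psmb8 (0.633), Psmb7 (0.634), Psmc1 (0.63) and Psmb4 (0.706). RF6_MT_898 was lowest for Psma6 (0.68), Psmb6 (0.643) and Psmc2 (0.676). RF6_WT_828 was highest for Psmb8 (0.668) and Psmg3 (0.661), and RF6_WT_816 for Psmd6 (0.629). ALC_MT_868 was highest for Psmb9 (0.847) and ALC_MT_859 for Psmc5 (0.629). ONF_MT_826 was highest for Psmc3ip (0.672) and ONF_MT_827 for Psmd8 (0.665). ONF_WT_807 was lowest for Psmd8 (0.798), and ALC_WT_856 was highest for Psmd14 (0.68).

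The response to feeding differed between genotypes by the interaction test for Psma7 on fasting (0.298), and for Psma3 (-0.348) and Psma7 (-0.386) on refeeding. These are 1 of 49 genes with fasting, beside 4.35% of all genes, and 2 of 49 with refeeding, beside 2.06%. The Psma7 call with fasting was lost without any 1 of 17 of 24 mice and the Psma3 call without any 1 of 15 of 24.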

How the results depend on the processing

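Of 2289 values of named members under alternatives, 2157 kept their direction and their side of the threshold, 131 lost a call and 1 changed sign: Psmb10 in fed WT/Y657* against fed WT mice was -0.0286 without the 4 mice over the lymphocyte limit. The cause was not tested for these or for the changes that follow. Scaling by library size alone called 1 gene between fed genotypes, 12 between fasted genotypes (6 shared with the 6 reported), 0 interactions with fasting and 1 with refeeding. The likelihood ratio test called 0 interactions with fasting. With no filter 8 genes were called for WT fasting and 0 for each interaction. The groups compared alone gave 0 interactions with fasting and 1 with refeeding, and DESeq2's size factors or the GC trend removed gave 1 with refeeding. Without the mice over the lymphocyte limit both interactions had 0, with Psma7 at 0.32 for fasting and at -0.35 for refeeding and Psma3 at -0.29. With the gene length trend removed, refeeding gave 29 calls in WT and 25 in WT/Y657* mice in place of 35 and 34, and library size alone gave 38 and 37. DESeq2 called 1 interaction with fasting and 3 with refeeding.

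Leaving out 1 mouse at a time gave 0 to 0 calls between fed genotypes, 5 to 10 between fasted genotypes (10 without ONF_MT_806) and 0 to 0 between refed genotypes. It gave 8 to 13 for fasting in WT mice (8 without ONF_WT_919) and 19 to 27 in WT/Y657* mice, and 34 to 36 and 27 to 34 for refeeding. Refed against fed mice gave 33 to 35 and 35 to 37. Interactions ranged from 0 to 2 with fasting and from 1 to 4 with refeeding. No paired analysis was possible because each mouse number occurs in 1 group. The tissue variants lay at or below 2 CPM, and how far depth limits single genes was not tested.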
